A study of Homo sapiens with 30 samples.

Results

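The genes described here are 10 human genes that move, store or sense iron: TFRC, SLC11A2, FTH1, FTL, NCOA4, SLC40A1, ACO1, IREB2, FBXL5 and SLC25A37. They are 10 of 59792 genes in the RefSeq gene table of GRCh38.p14, and they were listed because the drug of this study acts on enzymes that need iron. Every peak that lay inside one of the genes or within 2 kb of it was taken, which gave 11 of 21268 peaks of histone H3 lysine 4 trimethylation (H3K4me3, a mark of active promoters) and 39 of 63580 peaks of histone H3 lysine 27 acetylation (H3K27ac, a mark of active promoters and enhancers). The marks were measured by ChIP-seq, the sequencing of DNA bound to immunoprecipitated chromatin, in OCI-Ly1, an established cell line of diffuse large B-cell lymphoma. Cells received JIB-04, an inhibitor of the Jumonji family of histone demethylases, at 150 nM or 500 nM, or only the vehicle, 0.01% DMSO. Each mark had 2 libraries per treatment, and every mean below has n = 2. The labels do not say whether the libraries of a group came from separate cultures, so the p-values measure only the spread between these libraries. The comparison asks whether a drug directed at iron-dependent enzymes left a change in the chromatin of the genes that supply and sense iron.

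Most cells take up iron bound to transferrin through the transferrin receptor, release it from the endosome with a metal transporter, and lock the surplus in ferritin shells made of heavy and light chains. Iron regulatory proteins bind hairpins in the mRNAs of these genes when iron is scarce, so that uptake rises and storage and export fall. Much of this control acts on mRNA and protein stability, which histone marks do not measure. Jumonji demethylases hold ferrous iron in their active site, and some of them remove methyl groups from lysine 4 of histone H3.

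The promoters of genes that the results turn on are printed here so that their sequence can be read beside the marks. RefSeq's promoter table for GRCh38.p14 matched 8 of the 10 genes, with 13 windows in all, because some genes have more than 1 annotated start; FTH1 and SLC25A37 had no entry. Each line gives the 250 bases before the start, 5′ to 3′ in the direction of transcription. Capitals mark matches, on either strand, to any of 5 motifs. ACGTG is the core of hypoxia-type elements, and CACGTG, an E-box, contains those letters. TGACNNNGC is the core of antioxidant-type elements, CCAAT is the box of that name, and GGGCGG is the core of GC boxes. TFRC (chr3:196082091-196082340, minus strand) had the strongest single H3K4me3 peak of the set, FBXL5 (chr4:15655358-15655607, minus strand) had H3K4me3 that fell at 500 nM, NCOA4 (chr10:46030624-46030873, minus strand) and FTL (chr19:48965059-48965308, plus strand) had promoter H3K4me3 with no call, and SLC40A1 (chr2:189580787-189581036, minus strand) had no peak of either mark.
TFRC: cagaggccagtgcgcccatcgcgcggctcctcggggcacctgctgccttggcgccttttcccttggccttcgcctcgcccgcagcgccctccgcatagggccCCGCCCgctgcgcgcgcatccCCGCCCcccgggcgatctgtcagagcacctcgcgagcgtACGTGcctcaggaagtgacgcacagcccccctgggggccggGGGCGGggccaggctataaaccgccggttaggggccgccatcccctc
FBXL5: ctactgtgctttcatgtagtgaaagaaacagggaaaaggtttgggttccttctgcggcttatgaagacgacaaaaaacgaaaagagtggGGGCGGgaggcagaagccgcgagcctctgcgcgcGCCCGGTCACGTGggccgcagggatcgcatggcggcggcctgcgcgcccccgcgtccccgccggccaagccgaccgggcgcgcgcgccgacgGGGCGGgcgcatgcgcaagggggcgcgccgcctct
NCOA4: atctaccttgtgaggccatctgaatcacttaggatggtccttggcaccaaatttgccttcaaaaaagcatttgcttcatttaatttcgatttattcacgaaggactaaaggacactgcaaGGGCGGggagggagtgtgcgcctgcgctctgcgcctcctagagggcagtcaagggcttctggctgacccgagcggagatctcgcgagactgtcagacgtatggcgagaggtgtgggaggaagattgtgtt
FTL: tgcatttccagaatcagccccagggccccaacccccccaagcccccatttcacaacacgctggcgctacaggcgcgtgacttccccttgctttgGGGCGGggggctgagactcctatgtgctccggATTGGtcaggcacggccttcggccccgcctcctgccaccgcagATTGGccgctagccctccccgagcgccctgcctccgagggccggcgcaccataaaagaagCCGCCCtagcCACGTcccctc
SLC40A1: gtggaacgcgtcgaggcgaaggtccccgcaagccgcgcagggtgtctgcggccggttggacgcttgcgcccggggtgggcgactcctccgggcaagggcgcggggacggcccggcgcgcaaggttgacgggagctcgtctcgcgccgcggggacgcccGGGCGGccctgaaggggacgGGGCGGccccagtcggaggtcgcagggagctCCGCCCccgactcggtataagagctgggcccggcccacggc
ACGTG was found in 3 of the 13 windows and in 18.5% of 35116 promoters of the same length, CACGTG in 1 window and 6.34%, TGACNNNGC in 1 window and 10.9%, CCAAT in 5 windows and 32%, and GGGCGG in 8 windows and 42.6%. The FBXL5 window held the only CACGTG of the set, and its letters overlap those of the only TGACNNNGC match, on the other strand. A match describes letters and not a bound factor. Apart from the motifs, the SLC40A1 window had a GC content of 77.2% and 38 CpG dinucleotides, a ratio of observed to expected CpG of 1.04. The medians over all promoters were 58% GC and a ratio of 0.558, so the SLC40A1 window was richer in CpG than most promoters although neither mark had a peak there.

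Total counts in peaks ran from 9686420 to 12327122 for the 6 H3K4me3 libraries and from 4360660 to 5410292 for the 6 H3K27ac libraries. Levels below are counts per 1000000 reads in tested peaks (CPM) after TMM scaling, a scale on which a change shared by all peaks is not seen. The H3K4me3 libraries at 150 nM differed from each other by less than counting noise (chi-square per degree of freedom 0.941), as did DMSO replicate 1 and 150 nM replicate 1 (0.962), and all were kept as separate samples. In H3K27ac, DMSO replicate 2 and 150 nM replicate 2 stood apart on 5 unplaced contigs, with 363 and 246 reads there against 1674 to 2173 in the other libraries. The B-cell markers CD79A, CD79B, PAX5, MS4A1, CD22 and BCL6 carried peaks of both marks. Of the markers of other cells, 3 of 5 T-cell, 1 of 4 myeloid, 2 of 5 erythroid and 1 of 3 hepatocyte genes had an H3K4me3 peak. H3K27ac peaks were found at 5 of 5 T-cell, 2 of 5 erythroid, 0 of 4 myeloid and 0 of 3 hepatocyte genes. Summed over the list on the scale of reads per gene, T-cell markers held 52.4 CPM of H3K4me3 and 128 CPM of H3K27ac in DMSO, and erythroid markers, all of it at EPOR and KLF1, 124 CPM and 96.3 CPM. The myeloid and hepatocyte lists held 6.31 and 3.12 CPM of H3K4me3.

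H3K4me3 was present at 9 of the 10 genes in every library, and at 500 nM it fell at FBXL5 and at a weak peak inside NCOA4. Tested with edgeR against all peaks, 3 of the 11 peaks had an adjusted p under 0.05 at 500 nM against DMSO, and all 3 were lower, against 39.4% of all tested peaks called in either direction and 18.7% called lower. The count of 3 in 11 was below the share of all peaks called in either direction and above the share called lower. Among the 7111 peaks in the abundance range of the strongest iron handling peaks, 27% were called lower. Whether 3 in 11 differs from these shares was not tested. At 150 nM none of the 11 was called by edgeR or by DESeq2, none had an unadjusted p under 0.05, and 0.0% of all peaks was called. Against 150 nM, 4 of the 11 were lower at 500 nM and none was higher. Of all peaks 39.2% were called and 18.6% called lower, and 25.1% were called lower in the same abundance range. Both contrasts use the same 500 nM libraries and are not independent. The signal comes from many cells together, so a small change in all cells and a large one in a part of them cannot be told apart.

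**Figure D1:**
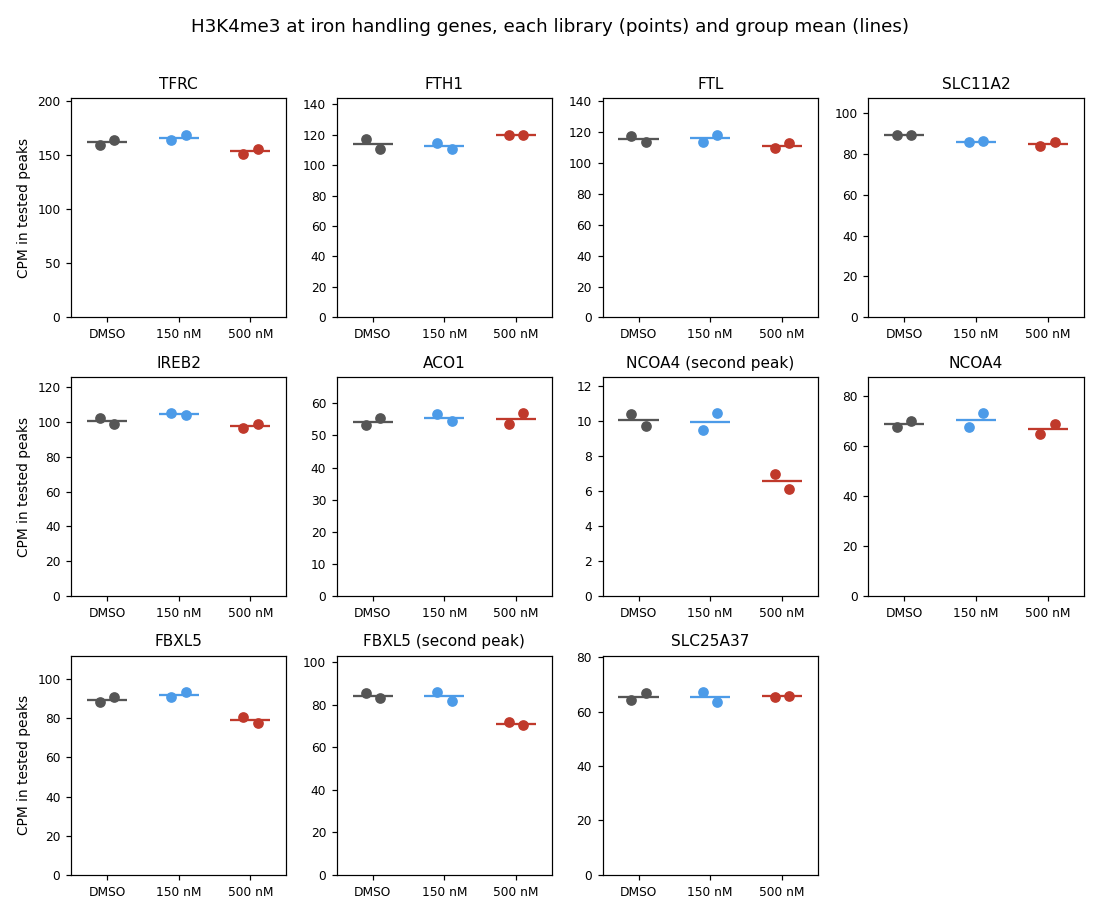
H3K4me3 at the 11 peaks of the iron handling genes, in CPM in tested peaks on the vertical axis, by treatment. Points are single libraries and lines are means of 2 libraries; each vertical axis starts at 0 and has its own range. The 500 nM points lie clearly below the others in the panels of both FBXL5 peaks and of the second NCOA4 peak (6.97 and 6.13 CPM).

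Uptake was represented by TFRC and SLC11A2. TFRC, the transferrin receptor, lies at chr3:196049284-196082090, and its H3K4me3 peak covers the annotated start. It held 159 and 164 CPM in the DMSO libraries, 163 and 169 CPM at 150 nM, and 150 and 156 CPM at 500 nM. Both 500 nM libraries lay below all others, by a small margin. The log2 fold change at 500 nM was -0.08 ± 0.035 (SE) against DMSO, which did not pass (edgeR, adjusted p = 0.0737), and -0.12 ± 0.035 against 150 nM, which did (adjusted p = 0.00598). The second call was lost in 5 of 15 alternative fits, among them those without 150 nM replicate 2 (adjusted p = 0.122) and without 500 nM replicate 1 (adjusted p = 0.0948). With loess offsets on abundance the TFRC difference was -0.05 (adjusted p = 0.276). SLC11A2 encodes the divalent metal transporter that carries iron out of endosomes, at chr12:50952263-51028886 with 4 annotated starts. One of these starts lay under its H3K4me3 peak, with 89.0 and 89.3 CPM in DMSO, 85.8 and 86.1 CPM at 150 nM, and 83.9 and 85.5 CPM at 500 nM. Both drug groups were below DMSO at this peak, and neither difference passed the test (log2 fold change -0.08 ± 0.044 and adjusted p = 0.196 at 500 nM).

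The ferritin genes did not pass the test in the fit by peaks, and they lay on opposite sides of DMSO. FTH1, the ferritin heavy chain that oxidises iron, is at chr11:61964285-61967634. Its peak held 117 and 110 CPM in DMSO, 115 and 111 CPM at 150 nM, and 120 and 119.6 CPM at 500 nM. The 500 nM libraries were above all DMSO and 150 nM libraries, and the log2 fold change was 0.07 ± 0.040 against DMSO (adjusted p = 0.16) and 0.09 ± 0.040 against 150 nM (adjusted p = 0.0777). Under other scalings the FTH1 difference from DMSO passed, at 0.105 with the total count in peaks (adjusted p = 0.0309) and 0.13 with loess offsets (adjusted p = 0.00744), and in the 13 other alternative fits it did not. It was 0.03 without DMSO replicate 2 (adjusted p = 0.7) and 0.12 without DMSO replicate 1 (adjusted p = 0.073). FTL, the ferritin light chain that helps iron settle in the shell, is at chr19:48965309-48966879. It held 117 and 114 CPM in DMSO, 114 and 118 CPM at 150 nM, and 110 and 113 CPM at 500 nM. The FTL libraries at 500 nM lay just below those of DMSO, with a log2 fold change of -0.06 ± 0.040 (adjusted p = 0.272), and with loess offsets it was 0.003. The FTH1 peak also covers the start of the noncoding RNA LOC399900, and the FTL peak lies within 2 kb of BAX and GYS1. The gene table lists 27 processed copies of FTH1, 20 of FTL and 4 of NCOA4, none with a peak of either mark. How reads that map to several places were treated is not given in the sources used here, so the counts of these 3 genes are uncertain to that extent.

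NCOA4 is the cargo receptor that takes ferritin to the lysosome, at chr10:46005088-46030623 with 2 annotated starts, and its 2 H3K4me3 peaks gave different results. The promoter peak held 67.5 and 69.9 CPM in DMSO, 67.4 and 72.9 CPM at 150 nM, and 64.8 and 68.8 CPM at 500 nM, with overlapping groups and a log2 fold change of -0.04 ± 0.052 (adjusted p = 0.558). A second, weaker peak at chr10:46022993-46023800 lies 6.82 to 7.63 kb past the start under the promoter peak. The other annotated start is nearer, 2.99 kb downstream of this weaker peak, and had no H3K4me3 peak over it. The weaker peak is described next. It held 10.4 and 9.73 CPM in DMSO, 9.50 and 10.4 CPM at 150 nM, and 6.97 and 6.13 CPM at 500 nM. Both 500 nM libraries were below all 4 others, and the level fell by 34.6% against DMSO (log2 fold change -0.61 ± 0.159, edgeR adjusted p = 0.00151) and by 33.8% against 150 nM (-0.60 ± 0.161, adjusted p = 0.00223). This peak rests on 97.7 reads per library on average, and DESeq2 did not call it (adjusted p = 0.0657 against DMSO). Peaks with 0.5 to 2 times its abundance, 3354 in number, were more often called higher than lower, with a median log2 fold change of 0.18, 35.8% called higher and 15.6% called lower.

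**Figure D2:**
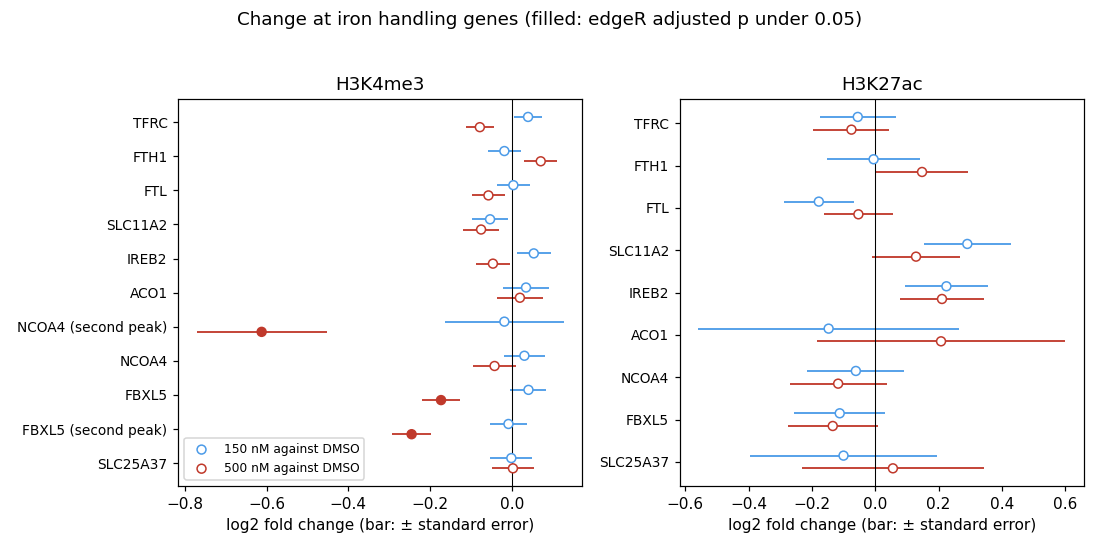
Log2 fold change against DMSO (horizontal axis) of the H3K4me3 peaks (left) and of the strongest H3K27ac peak of each gene (right), at 150 nM (blue) and 500 nM (red). Bars are ± 1 standard error and filled points had an edgeR adjusted p under 0.05. Filled points stand at the second NCOA4 peak (-0.61) and at both FBXL5 peaks (-0.17 and -0.25) on the left, and there is none on the right.

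SLC40A1 encodes ferroportin, the exporter of iron from cells, at chr2:189560590-189580786. It had no peak of either mark inside the gene or within 2 kb, and the nearest ones were 80.1 kb away for H3K4me3 and 76.7 kb away for H3K27ac. No level or change can therefore be given for it, and the absence of a consensus peak does not give a limit on its signal.

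Among the regulators, FBXL5 fell and the iron regulatory proteins did not pass the test. FBXL5 is the iron-sensing subunit of a ubiquitin ligase that marks IRP2 for destruction, at chr4:15604381-15681569. The peak over its annotated start held 88.3 and 91.0 CPM in DMSO, 90.8 and 93.4 CPM at 150 nM, and 80.9 and 77.5 CPM at 500 nM. Both 500 nM libraries were below the other 4, and the level fell by 11.3% against DMSO (log2 fold change -0.17 ± 0.046, adjusted p = 0.00175) and by 13.8% against 150 nM (-0.21 ± 0.046, adjusted p = 0.000123). A second strong peak, chr4:15679608-15682953, lies 24.3 to 27.6 kb upstream of that start. It covers the 5′ end of the annotated FBXL5 gene, where the promoter table has no FBXL5 entry. The peak also covers the start of FAM200B, a protein-coding gene. This peak held 85.3 and 83.2 CPM in DMSO, 85.9 and 81.8 CPM at 150 nM, and 71.9 and 70.3 CPM at 500 nM. It fell by 15.6% against DMSO (log2 fold change -0.25 ± 0.047, adjusted p = 2.68e-05) and by 15.2% against 150 nM (-0.24 ± 0.048, adjusted p = 5.09e-05).

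The upstream FBXL5 peak passed in all 15 alternative fits of both contrasts, and the peak over the start in 14 of 15 against DMSO, the exception being DESeq2 (-0.18, adjusted p = 0.106). Summed over both peaks, FBXL5 was the only gene of the set called at 500 nM against DMSO, with a log2 fold change of -0.19 ± 0.033 (adjusted p = 1.44e-05), against 39.0% of all genes called and 17.8% called lower. FAM200B overlaps both peaks, so the sum cannot be assigned to FBXL5 alone. Against 150 nM, 3 of the 9 summed genes passed, FBXL5 (-0.21, adjusted p = 3.18e-06) and TFRC (-0.10, adjusted p = 0.0132) lower and FTH1 (0.10, adjusted p = 0.0318) higher, against 38.9% of all genes. The FTH1 call was lost in 6 of 15 alternative fits, among them those without 150 nM replicate 1 (adjusted p = 0.0638) or 2 (0.303), without 500 nM replicate 1 (0.169) or 2 (0.0727), and with DESeq2 (0.364). The TFRC sum lost its call in 5 of 15, among them those without 150 nM replicate 2 (0.127) and without 500 nM replicate 1 (0.134). At 150 nM against DMSO none of the 9 passed with edgeR or DESeq2, none had an unadjusted p under 0.05, and 0.0% of all genes was called.

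ACO1 encodes IRP1, which is a cytosolic aconitase when it carries an iron-sulfur cluster and binds mRNA when it does not, at chr9:32384643-32454769. Its peak held 53.4 and 55.3 CPM in DMSO, 56.6 and 54.5 CPM at 150 nM, and 53.5 and 56.9 CPM at 500 nM, with overlapping groups and a log2 fold change of 0.02 ± 0.056 at 500 nM (adjusted p = 0.815). IREB2 encodes IRP2, which iron-replete cells degrade, at chr15:78437431-78501453. It held 102 and 98.7 CPM in DMSO, 105 and 104 CPM at 150 nM, and 96.3 and 98.8 CPM at 500 nM. The IREB2 groups at 500 nM and DMSO overlapped (-0.05 ± 0.042, adjusted p = 0.418), and the 500 nM libraries lay below both 150 nM libraries without passing (-0.10 ± 0.042, adjusted p = 0.0541). SLC25A37, mitoferrin, brings iron into mitochondria and lies on chromosome 8. Its peak held 64.4 and 66.8 CPM in DMSO, 67.2 and 63.6 CPM at 150 nM, and 65.5 and 65.8 CPM at 500 nM. SLC25A37 showed the smallest difference of the 11 peaks at 500 nM, 0.003 ± 0.051 (adjusted p = 0.97).

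The groups of 500 nM and DMSO did not overlap at 7 of the 11 peaks, 6 with both drug libraries below and 1 with both above. Over all tested peaks 34.3% lay below and 33.7% above. The strongest peak of each gene had between 55.0 and 160 CPM, and 7111 tested peaks had a mean in that range. Of these 34.1% were called at 500 nM against DMSO, 27% lower and 7.1% higher, with a median log2 fold change of -0.05. The 9 strongest peaks of the iron handling genes had a median of -0.05, and the 11 together had -0.06. The FBXL5 peak at the start (-0.17) and the upstream one (-0.25) lay on the low side of these peaks, of which the fifth percentile was -0.25 and the 95th was 0.14.

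**Figure D3:**
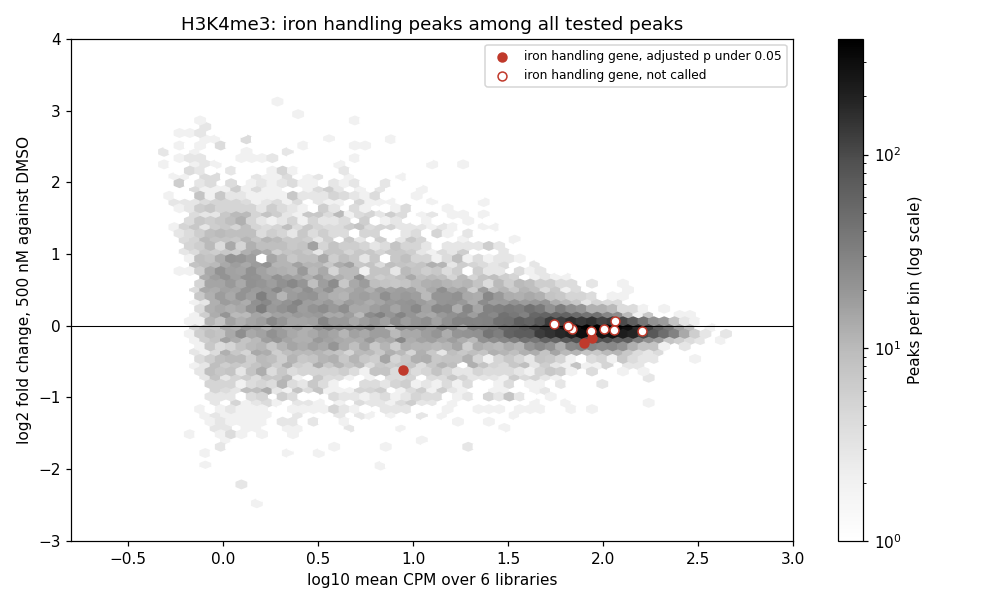
Log2 fold change of H3K4me3 at 500 nM against DMSO (vertical axis) against log10 of the mean CPM over 6 libraries (horizontal axis) for all 20402 tested peaks, shaded by the number of peaks per bin on a log scale. Circles are the 11 iron handling peaks, filled in red where edgeR called them. Most circles lie in the dense band of strong peaks near 0, with the second NCOA4 peak at lower abundance and at -0.61.

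Per kilobase of peak, the DMSO level of H3K4me3 was highest at TFRC (48.8 ± 1.02 CPM per kb, SD, n = 2) and IREB2 (44.8 ± 1.08), followed by FTH1 (38.2 ± 1.65), ACO1 (37.4 ± 0.923), NCOA4 (35.7 ± 0.913), SLC11A2 (35.0 ± 0.0783), SLC25A37 (32.9 ± 0.869), FBXL5 (32.4 ± 0.686) and FTL (32.1 ± 0.781). Neighbours in this order did not differ beyond their spread for FTH1 and ACO1, for NCOA4 and SLC11A2, and among SLC25A37, FBXL5 and FTL. H3K27ac per kilobase had another order. TFRC (28.5 ± 0.249 CPM per kb) and FTL (28.3 ± 1.70) led and overlapped, FBXL5 (25.1 ± 1.95) came next, and ACO1 (9.59 ± 0.488) and SLC25A37 (9.11 ± 0.0426) were lowest. ACO1 was thus among the middle genes for H3K4me3 and near the bottom for H3K27ac. The H3K27ac value of FTL is that of its strongest peak, which ends 0.261 kb before the start. The FTL peak over the start had 20.4 ± 1.41 CPM per kb in DMSO, below FBXL5.

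H3K27ac covered the same 9 genes with 39 peaks, of which 31 passed the filter on low counts and 8, with mean counts of 5 to 7.83 reads, did not. FBXL5 had 14 peaks, SLC11A2 7, IREB2 5, FTL 4, TFRC and NCOA4 3 each, and FTH1, ACO1 and SLC25A37 1 each. Most of those of FBXL5 lay between its start and the upstream H3K4me3 peak, a stretch that is also inside FAM200B. At FTL the strongest peak (chr19:48961864-48965048) ends 0.261 kb before the start, on the side of BAX, and a weaker one covers the start. An H3K27ac peak at chr12:51009018-51009489 covers a second annotated start of SLC11A2, which had no H3K4me3 peak.

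**Figure D4:**
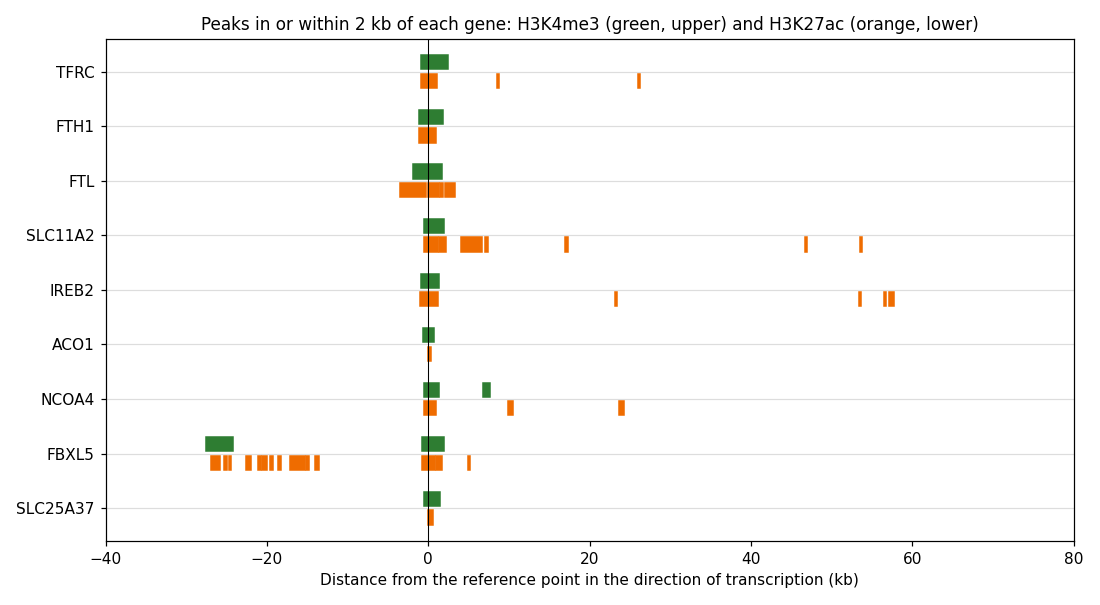
Position of the H3K4me3 peaks (green, upper) and H3K27ac peaks (orange, lower) of 9 genes, in kb from the annotated start in the direction of transcription, or from the gene end under the peak for FTH1 and SLC25A37, which have no promoter entry. The start used was the one under the strongest H3K4me3 peak of the gene, so that H3K4me3 at 0 was fixed by this choice. FBXL5 has a second H3K4me3 peak 24.3 to 27.6 kb upstream with a row of H3K27ac peaks before it.

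No H3K27ac peak of the iron handling genes passed in any comparison. At 500 nM against DMSO edgeR called 0 of 31 and DESeq2 0, with 3 at an unadjusted p under 0.05, all lower, and 0.923% of all tested peaks were called. At 150 nM against DMSO both tools called 0, with 1 peak at an unadjusted p under 0.05, against 0.00185% of all peaks. For 500 nM against 150 nM both called 0, with 3 peaks at an unadjusted p under 0.05, against 1.27% of all peaks. Standard errors of the strongest peaks ran from 0.11 to 0.392 on the log2 scale, against 0.035 to 0.056 for H3K4me3. Those peaks held 16.8 to 425 reads per library, against 604 to 1760 for H3K4me3. Libraries of a group also differed more in H3K27ac, with chi-square per degree of freedom of 1.29 to 2.26 against 0.941 to 1.21. Single H3K27ac peaks were thus measured less precisely. Whether a change of the size seen for H3K4me3 at FBXL5 would have been called in them was not tested.

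The TFRC promoter held 55.9 and 56.6 CPM of H3K27ac in DMSO, 54.0 and 54.3 CPM at 150 nM, and 50.3 and 56.5 CPM at 500 nM. FTH1 held 33.3 and 34.7 CPM, 28.7 and 38.8 CPM, and 35.6 and 39.9 CPM in the same order, and the FTL peak before the start 86.2 and 93.9 CPM, 70.6 and 88.4 CPM, and 82.3 and 91.5 CPM. TFRC and FTL overlapped between 500 nM and DMSO, and both FTH1 libraries at 500 nM were above DMSO (0.15 ± 0.145, adjusted p = 0.754). The SLC11A2 promoter held 33.8 and 32.1 CPM in DMSO, 41.0 and 39.6 CPM at 150 nM, and 34.7 and 37.4 CPM at 500 nM, so that both drug groups lay above DMSO (0.29 ± 0.138 at 150 nM, adjusted p = 1). At its second start the levels were 4.60 and 3.41 CPM in DMSO, 4.89 and 6.60 CPM at 150 nM, and 2.64 and 2.15 CPM at 500 nM. There the 500 nM libraries were lowest, with a log2 fold change of -1.26 ± 0.370 against 150 nM and the smallest adjusted p of the 31 peaks in that contrast (0.0812), on 20 reads per library. All 4 tested SLC11A2 peaks were lower at 500 nM than at 150 nM, and their sum gave -0.31 (adjusted p = 0.151). That sum passed in 3 of 15 alternative fits and did not pass in the 12 others. It passed with the contig split as a batch term (-0.42, edgeR adjusted p = 0.00479) and with the replicate number as a block (-0.31, adjusted p = 0.0378). The third fit left out 150 nM replicate 2 (-0.40). Calls over all H3K27ac peaks also rose in these 3 fits. Over all 15 the log2 fold change ran from -0.415 to -0.235.

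IREB2 held 38.2 and 36.5 CPM of H3K27ac at its promoter in DMSO, 41.7 and 45.4 CPM at 150 nM, and 42.6 and 43.8 CPM at 500 nM. All 4 drug libraries were above both DMSO libraries, and the difference at 500 nM was 0.21 ± 0.132 (adjusted p = 0.57). ACO1 held between 2.83 and 4.50 CPM and SLC25A37 between 5.47 and 6.59 CPM over the 6 libraries, with overlapping groups at 500 nM and DMSO. The NCOA4 promoter held 29.2 and 27.3 CPM in DMSO, 25.7 and 28.3 CPM at 150 nM, and 26.9 and 25.03 CPM at 500 nM (-0.12 ± 0.153, adjusted p = 0.829). The 3 NCOA4 peaks were all lower at 500 nM than in DMSO, with log2 fold changes from -1.75 to -0.12, and their sum gave -0.28 (adjusted p = 0.212). Of all 31 tested H3K27ac peaks, 6 had both 500 nM libraries above DMSO and 10 had both below. The share over all H3K27ac peaks is not given here, so separated groups are descriptions only.

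**Figure D5:**
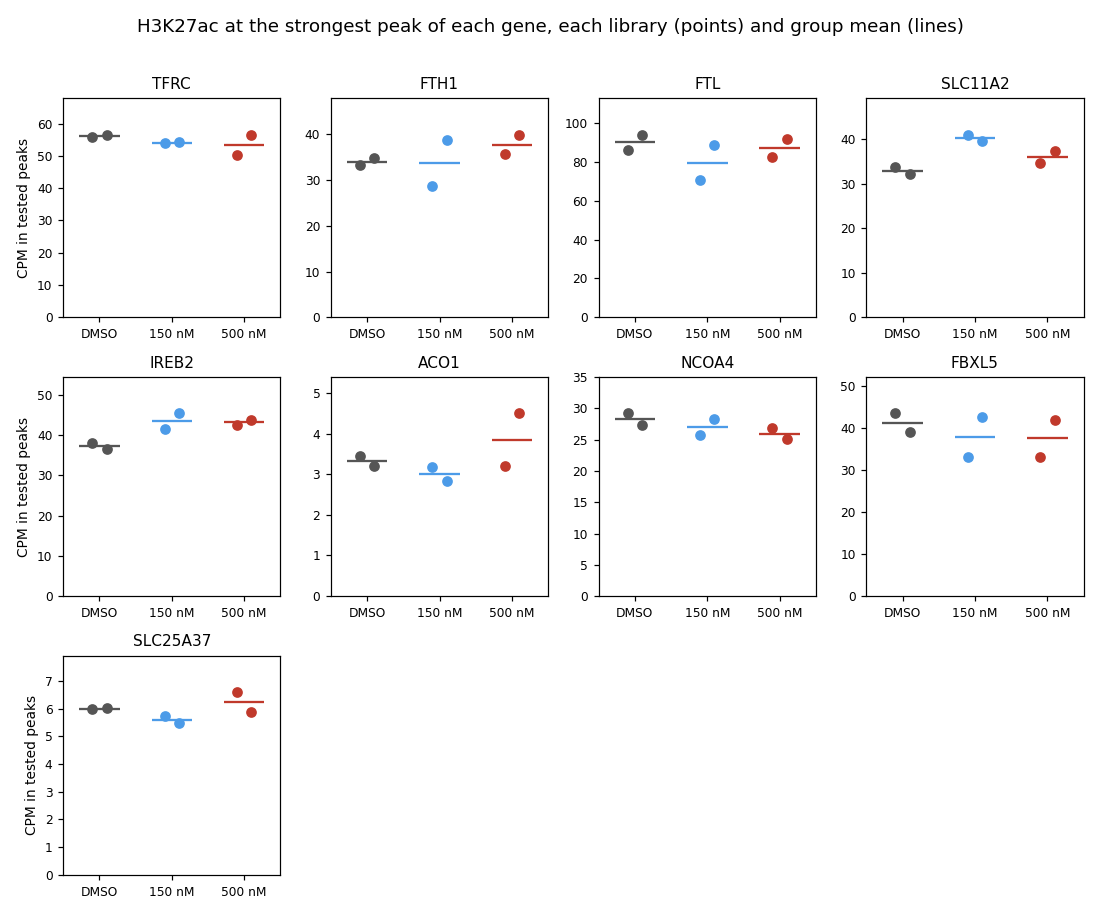
H3K27ac at the strongest peak of each of 9 genes, in CPM in tested peaks on the vertical axis, by treatment. Points are single libraries and lines are means of 2 libraries; each vertical axis starts at 0 and has its own range. The drug libraries of IREB2 and SLC11A2 lie above DMSO, and at FTL, FTH1 and FBXL5 the replicates of a drug group lie far apart.

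At the FBXL5 start H3K27ac held 43.5 and 38.9 CPM in DMSO, 33.2 and 42.6 CPM at 150 nM, and 33.2 and 41.9 CPM at 500 nM, with overlapping groups (-0.13 ± 0.142, adjusted p = 0.779). The peak at the FAM200B start held 26.4 and 26.5 CPM in DMSO and 27.5 and 27.4 CPM at 500 nM (0.05 ± 0.152, adjusted p = 0.937), at the place where H3K4me3 fell. A peak 0.9 to 1.66 kb past the FBXL5 start held 8.28 and 8.02 CPM in DMSO, 7.65 and 4.15 CPM at 150 nM, and 3.96 and 5.48 CPM at 500 nM (-0.79 ± 0.299, adjusted p = 0.253). This was the smallest adjusted p of the 31 peaks at 500 nM against DMSO. Of the 11 tested FBXL5 peaks 9 were lower than DMSO at 500 nM and 2 higher, and none passed. Summed, the FBXL5 peaks gave 92.4 and 85.8 CPM in DMSO, 83.9 and 77.7 CPM at 150 nM, and 72.6 and 76.9 CPM at 500 nM, on the scale of reads summed per gene. Both 500 nM sums were below DMSO, with a log2 fold change of -0.25 ± 0.084 (adjusted p = 0.15). This result passed in 4 of 15 alternative fits, and calls over all H3K27ac peaks rose in each of those 4. Over all 15 the log2 fold change ran from -0.307 to -0.2. With the contig split as a batch term it was -0.31 (adjusted p = 0.0257). None of the 9 summed genes passed at 500 nM against DMSO with edgeR or DESeq2, 2 had an unadjusted p under 0.05, and 1.27% of all genes were called. At 150 nM against DMSO none passed with either tool, none had an unadjusted p under 0.05, and 0.0% of all genes was called, and at 500 nM against 150 nM none passed, 1 had an unadjusted p under 0.05, and 1.24% of all genes were called.

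A list of 45 other genes of iron and haem metabolism was read in the same fit of summed peaks. Of these 38 had H3K4me3, and at 500 nM against DMSO 9 rose, 3 fell and 26 were not called, beside 21.3% of all genes called higher and 17.8% called lower, with a median log2 fold change of 0.02 against -0.007 over all 20217 genes tested. DESeq2 called 7 of the 38 where edgeR called 12. Over all H3K4me3 peaks DESeq2 also called fewer, 1938 higher and 1496 lower against 4215 and 3819 with edgeR. Of the 8 genes of uptake and iron reduction, 3 rose and 1 fell. None of 12 genes of mitochondrial iron and iron-sulfur clusters was called with edgeR. Among 7 genes of haem breakdown and transport 4 rose and 1 fell. At 150 nM none of the 38 passed with edgeR or DESeq2 and 1 had an unadjusted p under 0.05.

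The largest rises were at genes with little H3K4me3 in DMSO. BMP6, a ligand that induces hepcidin in the liver, held 5.19 and 4.09 CPM in DMSO, 5.32 and 5.36 CPM at 150 nM, and 20.7 and 23.7 CPM at 500 nM (2.24 ± 0.114, adjusted p = 1.17e-17). CYBRD1, a ferric reductase of the gut, held 0.961 and 0.921 CPM in DMSO, 1.16 and 0.438 CPM at 150 nM, and 4.11 and 5.37 CPM at 500 nM (2.31 ± 0.255, adjusted p = 3.34e-09). STEAP3, the endosomal ferric reductase of red cell precursors, held 3.27 and 3.63 CPM in DMSO, 4.11 and 3.77 CPM at 150 nM, and 8.83 and 8.21 CPM at 500 nM (1.31 ± 0.148, adjusted p = 4.6e-09). None of these 3 had an H3K27ac peak, and at each of them both 500 nM libraries stood above all others. Whether these weak peaks entered the list through the 500 nM libraries alone is not known. A region that did would tend to show a rise.

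BLVRA, a biliverdin reductase, rose from 14.3 ± 0.119 CPM (SD) in DMSO to 23.1 ± 1.20 CPM at 500 nM (0.70, adjusted p = 2.71e-09). FLVCR2, a membrane transporter of the haem exporter family, rose from 4.79 ± 0.424 to 7.003 ± 0.433 CPM (0.54, adjusted p = 0.00355). All genes whose summed level lay between 2.16 and 17.5 CPM, the range of these 5, had a median log2 fold change of 0.27 at 500 nM, with 46.8% called higher and 8.62% lower. Genes that fell included SLC39A8, a zinc and iron importer (-0.18, adjusted p = 0.000163), and FLVCR1, a haem exporter (-0.09, adjusted p = 0.0426), both named after their values were seen. In H3K27ac, 34 of the 45 genes were tested and 1 was called, beside 1.27% of all genes. This was HMOX1, the inducible haem oxygenase, which frees iron from haem. It held 33.0 and 37.3 CPM in DMSO, 30.7 and 29.7 CPM at 150 nM, and 23.7 and 25.9 CPM at 500 nM, and fell by 0.51 ± 0.107 on the log2 scale (adjusted p = 0.0335). DESeq2 called none of the 34.

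Genes whose pattern over the 12 libraries was most like that of 2 members were found by the root mean square distance of log2 CPM, centred per gene and mark, among 11973 genes tested for both marks. FBXL5, the member with the largest fall, was nearest to FAM200B (distance 0.0), which has exactly the same peaks, and then to MYO1E (0.0335) and CDK17 (0.0421), against a median distance of 0.142. FTH1, the member with the largest rise (0.09, not called against DMSO), was nearest to PEMT (0.0324), HSPA14 (0.0351) and HMGN2 (0.0373), against a median of 0.133. Distances share the libraries and their depth and are descriptions only.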

How the data were processed

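The series holds 30 ChIP-seq samples, of which the 12 libraries of H3K4me3 and H3K27ac were used; those of H3K9me2, H3K9me3 and the input, 6 each, are not used here. Treatment, dose and replicate were read from the sample titles. The values are read counts per consensus peak, not normalized, in 1 table per mark, which the authors made with featureCounts 2.0.1, per the file headers, without regard to strand, with reads allowed in several peaks and at least 0.2 of a read in the peak. The headers give the option for paired reads and the labels' protocols give single reads, and whether reads or fragments were counted was not tested. The submitters' processing notes name Trim Galore 0.6.7, BWA 0.7.17-r1188, Picard 2.27.4, MACS2 2.2.7.1, deepTools 3.5.1, edgeR 3.42.4 and the build GRCh38, with no role for each. Whether peaks were called per sample or on pooled samples is not given in the sources used here.

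Deposited starts were raised by 1, because the lowest was 0, and peaks were matched to RefSeq gene positions of GRCh38.p14. edgeR 4.0.16 in R 4.3.3 fitted all 6 libraries of a mark over the whole table, with filterByExpr, TMM, glmQLFit and glmQLFTest, and Benjamini-Hochberg adjustment over all tested features at 0.05. Standard errors came from the F statistic. The same fit was run on peaks summed per gene. The step was tested on simulated data with changes larger than any H3K4me3 change at the iron handling peaks. That test does not cover changes as small as most of those described here. No molecular identifiers are recorded, so reads need not be separate molecules, and a mean of 2 libraries limits the precision.

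Named were all 10 genes, the strongest peak of each per mark, every peak called in any comparison, the 5 genes of the wider list with the largest change among those called at 500 nM against DMSO per mark, and the 3 genes nearest in pattern to the members with the largest rise and fall. Other peaks are named for their place or p and were chosen after their values were seen. A marker and a gene of the wider list are not reported here by name. The members, lists and tests were chosen with earlier results of these data known. Alternatives were other scalings, filters, windows and thresholds, DESeq2 1.42.0, the 4 libraries of a contrast alone, a replicate block, a batch term and leaving out each library.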

Additional observations from a re-analysis of the deposited data

How the results depend on the processing

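No result changed direction while called. With DESeq2 in place of edgeR, 1 H3K4me3 peak was called at 500 nM against DMSO (3 with edgeR) and 2 against 150 nM (4). The genes called at 500 nM against 150 nM were 1 (3 with edgeR). The loss was not limited to the iron handling peaks, because calls over all H3K4me3 peaks fell too. With DESeq2 these went from 4215 higher and 3819 lower to 1938 and 1496 against DMSO. For 500 nM against 150 nM they went from 4190 and 3798 to 1866 and 1577. The genes called at 500 nM against DMSO were 2 in place of 1 with the total count in peaks, with loess offsets and when peaks averaging under 50 counts were left out. Against 150 nM they were 1 at an adjusted p under 0.01 and 1 with the 150 nM libraries as 1 sample, an alternative chosen after seeing the data. In H3K27ac the iron handling genes called at 500 nM against DMSO were 1 in place of 0 with the 4 libraries of the contrast alone and with a batch term, and against 150 nM 1 with the batch term. Over all H3K27ac peaks the calls against DMSO were 374 higher and 125 lower in the main fit. They rose to 1222 and 883 with the 4 libraries alone, and to 784 and 490 with the batch term. Against 150 nM the batch term moved them from 587 and 100 to 677 and 236. Total-count scaling moved the split of H3K4me3 calls over all peaks from 4215 higher and 3819 lower to 4767 and 2791.

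Libraries with the same replicate number were not treated as pairs. Their deviations correlated at 0.0035 to 0.134 over peaks, and the labels give no shared source. The highest correlation was between DMSO and 150 nM in H3K27ac. There the first replicates differed by 1.3 in chi-square per degree of freedom and the second ones by 1.61. The DMSO libraries differed by 1.37 and those at 150 nM by 2.26. A replicate block raised H3K27ac calls over all peaks at 500 nM against DMSO from 374 higher and 125 lower to 765 and 385. With the replicate number as a block, 1 H3K27ac peak and 1 gene, both SLC11A2, were called at 500 nM against 150 nM (0 without), and the counts of iron handling peaks and genes were as in the fit without a block in the other comparisons.

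Leaving out each library in turn gave, for H3K4me3, 3 to 4 peaks and 1 to 2 genes at 500 nM against DMSO, and 3 to 5 peaks and 1 to 4 genes against 150 nM. For H3K27ac it gave 0 to 0 peaks and 0 to 1 genes against DMSO, and 0 to 1 peaks and 0 to 1 genes against 150 nM. At 150 nM against DMSO all counts stayed at 0. A second H3K4me3 gene against DMSO appeared without DMSO replicate 1, and the gene count against 150 nM was 1 without 150 nM replicate 2 or 500 nM replicate 1. The H3K27ac sum of FBXL5 at 500 nM against DMSO passed without 150 nM replicate 1 or replicate 2 (log2 fold change -0.25 in each). That of SLC11A2 against 150 nM passed without 150 nM replicate 2 (-0.40). Calls over all H3K27ac peaks also rose in these fits. The single SLC11A2 H3K27ac peak passed without 150 nM replicate 1. The cause of these differences was not tested. Depth and the spread between replicates both limit H3K27ac, where many weak peaks hold under 20 reads per library.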
